A study of Mus musculus with 6 samples.

Results

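The genes of the cytosolic ribosomal proteins were examined in beta-cells that had been sorted out of reaggregated mouse islet clusters. They were chosen by symbol, as every gene of the deposited table whose symbol is Rpl or Rps followed by a digit, together with *Rplp0*, *Rplp1*, *Rplp2* and *Rpsa*, and leaving out the S6 kinases and the rows marked as pseudogenes by their symbol. This gave 87 of the 13535 genes. By symbol, 35 of these were assigned to the small subunit, 47 to the large subunit and 3 to the stalk. *Rps19bp1* and *Rpl7l1* carry such a symbol without encoding a subunit. GENCODE M21 lists 83 of the 87 as protein-coding, and *Rpl6l*, *Rps3a2*, *Rpl37rt* and *Rps4l* as processed pseudogenes. The counts by subunit, here and below, include these pseudogenes.

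Wild-type islet cells from 12-week-old C57BL/6JRj males were reaggregated for 5 days in RPMI medium with fetal bovine serum and antibiotics, either as pseudo-islets (alpha-, beta- and delta-cells) or as pseudo-beta (beta-cells alone). Beta-cells were then purified again by flow cytometry, and libraries were made from 5 ng of their total RNA after depletion of ribosomal RNA. There were 3 libraries of each group, 1 from each of the experiments that the labels number 35, 36 and 37. No ligand or drug is named for these samples, the number of mice behind an experiment is not given, and reaggregated clusters lack the vessels and nerves of an islet.

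The cytosolic ribosome is built from ribosomal RNA and one copy each of most ribosomal proteins, so that the cell has to make these proteins in matched amounts. Their mRNAs typically start with a C followed by an uninterrupted stretch of pyrimidines, the 5′ terminal oligopyrimidine (TOP) motif, through which the kinase complex mTORC1 and the RNA-binding protein LARP1 control their translation and stability. Beta-cells devote much of their protein synthesis to proinsulin, and glucose drives phosphorylation of the small-subunit protein RPS6 in them.

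The starts of the genes are shown first because this motif is typical of the mRNAs of the group. RefSeq entries (build GRCm38.p6) were found for 64 of the 87 genes, with 75 start sites. Each line gives the 15 bases before and the 15 from the start site, 5′ to 3′ on the gene's strand, and capitals mark the longest run of C and T where it has at least 5 bases.
*Rps6*, chr4:86857353-86857382, minus strand: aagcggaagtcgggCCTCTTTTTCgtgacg
*Rpl15*, chr14:18270972-18271001, minus strand: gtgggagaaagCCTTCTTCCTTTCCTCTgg
*Rpl35*, chr2:39005117-39005146, minus strand: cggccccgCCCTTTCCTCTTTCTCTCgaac
*Rps27*, chr3:90213634-90213663, minus strand: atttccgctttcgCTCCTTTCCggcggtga
*Rplp2*, chr7:141447636-141447665, plus strand: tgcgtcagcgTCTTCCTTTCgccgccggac
*Rpl22l1*, chr3:28805493-28805522, plus strand: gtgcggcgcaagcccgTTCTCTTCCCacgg
*Rpl22*, chr4:152325711-152325740, plus strand: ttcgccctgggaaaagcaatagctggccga
*Rpl7l1*, chr17:46782642-46782671, minus strand: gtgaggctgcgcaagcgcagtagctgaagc
The first 5 are among the 14 of 75 windows with a C at the annotated start followed by at least 4 pyrimidines. They carry the run across the start site. In *Rpl22l1* the run begins just after it. *Rpl7l1* has no such run in this window, nor has *Rpl22*, shown at 1 of its 2 listed starts.

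A C at the annotated start followed by at least 4 pyrimidines was present in 14 of the 75 windows (18.67%), against 2.505% of the 32851 start sites in the table. A run of at least 8 pyrimidines within 15 bases of the start was present in 28 windows (37.33% against 12% of all). In the 300 bases around the start, 250 of them before it, CCGGAAG, the core of an ETS-factor site, was found on either strand in 34.67% of the windows against 8.858% of all. AAGATGGC, the core of a YY1 site, was found on either strand in 10.67% against 2.749%, and TATAAA in 9.333% against 13.62%. The first 3 letters of the YY1 core are the last 3 of the ETS core, so a joined pair counts under both. Windows of 1 gene can share bases, and annotated starts can lie a few bases from the true ones.

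Ribosomal protein mRNAs differed less between the groups than between the experiments. The deposited values are normalized counts, and log2 fold changes are those of log2(value + 1), pseudo-islets over pseudo-beta. No member was called by limma at an adjusted p of 0.05 (Benjamini-Hochberg, over the 13535 genes), in either direction, and none had an unadjusted p under 0.05. In that fit 8 of the 13535 genes were called higher in pseudo-islets (0.0591%) and 0 lower (0%). With the experiment number as a replicate block, which is given because same-numbered libraries deviated together, 59 genes were higher (0.436%) and 14 lower (0.103%), and again no member was called. With the block, 10 of the 87 members had an unadjusted p under 0.05, all higher in pseudo-islets. In that direction 905 of the 13535 genes had it, and 570 of the 4370 other genes that averaged 500 normalized counts or more. The lowest adjusted p of a member was 0.200 (limma, for *Rpl22l1*). Without the trend of the prior variance no member was called either, with or without the block.

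The fold changes were small and mostly of one sign. Their median was 0.11 on the log2 scale, a 1.08-fold higher level in pseudo-islets, against a median of 0.01 over all genes, and they ran from -0.29 (*Rpl6l*) to 0.46 (*Rpl22l1*). The sign was positive in 80 members and negative in 7, and 66 were positive with the libraries rescaled without the 10 most abundant genes and 64 after quantile normalization. Rescaling shifted all genes nearly alike: it moved the median of all genes from 0.01 to -0.05 and that of the members from 0.11 to 0.06. Among the 4370 other genes that averaged 500 normalized counts or more, the level of most members, the median was 0.05. For the 80 mitochondrial ribosomal protein genes, a class added after the data had been seen, it was 0.10. Where single libraries were left out of the fit without the block, the median of the members was 0.23 without pseudo-islets 35 and 0.23 without pseudo-beta 37, but 0.03 without pseudo-beta 35 and -0.01 without pseudo-islets 37. Leaving out a whole experiment with the block gave 0.10 to 0.12.

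The precision was enough to bound these differences. The standard error of a member's log2 fold change had a median of 0.17 without the block and 0.10 with it. The 95% interval lay within a 1.5-fold change in either direction for 64 members without the block and for 82 with it. The 5 others in the fit with the block were *Rpl22l1*, *Rpl22*, *Rps12*, *Rpl37rt* and *Rpl6l*. With 3 libraries a group, an exact two-sided permutation test of a single value cannot go below p = 0.1.

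**Figure D1:**
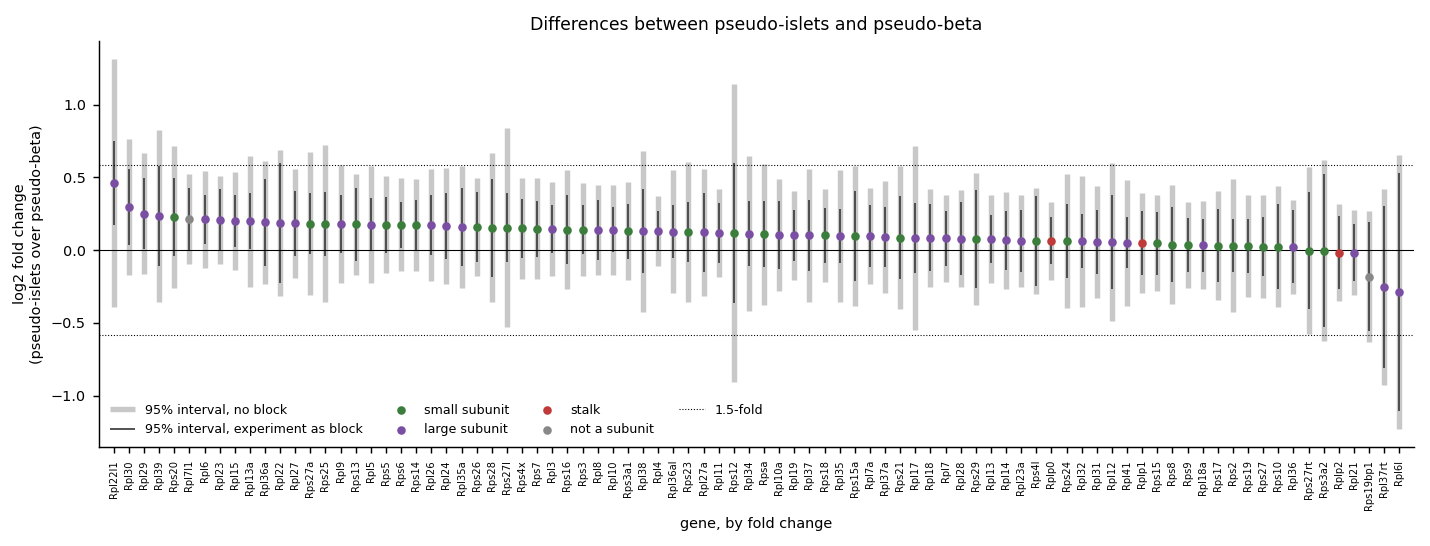
Log2 fold change (pseudo-islets over pseudo-beta) of 86 of the 87 genes, ordered by size, with 95% intervals from limma without the block (wide grey bars) and with the experiment as a block (thin bars), and dotted lines at 1.5-fold. The points lie between -0.29 and 0.46, 79 of them above 0, and with the block 81 of the intervals stay between the dotted lines.

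Within the experiments, the median paired difference of the members was 0.10, 0.14 and 0.11 in experiments 35, 36 and 37, with 65, 71 and 77 of the 87 genes higher in pseudo-islets. In all, 49 members (56.3%) were higher in pseudo-islets in every experiment, where 18.0% of all genes were. The share was 27.5% among the other genes that averaged 500 or more and 38.75% among the mitochondrial ribosomal protein genes. Only 1 member, *Rps19bp1*, was lower in every experiment, where 15.0% of all genes were. Members vary together within a library, so they are not independent replicates of the comparison. The 2 groups of libraries did not overlap, with pseudo-islets higher, for 1 member, *Rpl7l1* (1.15%, against 5.63% of all genes), and did not overlap with pseudo-islets lower for 0 members (against 5.13%).

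As a share of each library's normalized counts, the 87 genes made up 0.965%, 1.07% and 1.20% in the pseudo-islets libraries 35, 36 and 37, against 0.929%, 1.03% and 1.18% in pseudo-beta. The ranges of the groups overlapped, and the means were 1.08% ± 0.119 and 1.05% ± 0.127 (SD, n = 3). The share was higher in pseudo-islets in all 3 experiments, by 0.0362, 0.0395 and 0.0226 percentage points, which is less than the SD of 0.123 percentage points between the experiment means. In normalized counts the pseudo-islets sum was 1.07, 1.10 and 1.09 times that of pseudo-beta. The ratio of the shares was lower (1.04, 1.04 and 1.02) because all 3 pseudo-islets libraries had higher total normalized counts. In bulk RNA of sorted cells, fewer cells of a type and less RNA per cell cannot be told apart.

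The differences between experiments were larger and ran in step. Of the 87 genes, 83 (95.4%) were highest in experiment 37 and 74 (85.1%) lowest in experiment 35, against 38.2% and 31.7% of all genes. The median of experiment 37 minus experiment 35 was 0.39 on the log2 scale (1.31-fold), where it was 0.00 over all genes and -0.10 over genes that averaged 500 or more. The F-test of the experiment terms in limma's fit with the block called 855 genes (6.32%), 18 of them members (20.7%). It was added after the data had been seen. Of the other genes that averaged 500 or more, it called 13.4%. By this test 58 of the 87 members had an unadjusted p under 0.05. Of all 13535 genes 3182 had it, and of the 4370 other genes that averaged 500 or more, 1639. The 18 were *Rps2*, *Rps12*, *Rps23*, *Rps25*, *Rps27a*, *Rps27l* and *Rpsa* of the small subunit and *Rpl5*, *Rpl9*, *Rpl13a*, *Rpl17*, *Rpl22l1*, *Rpl32*, *Rpl34*, *Rpl35*, *Rpl36al*, *Rpl38* and *Rpl41* of the large subunit. Their levels in experiment 37 were 1.36-fold (*Rpl36al*) to 2.96-fold (*Rps12*) those in experiment 35.

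**Figure D2:**
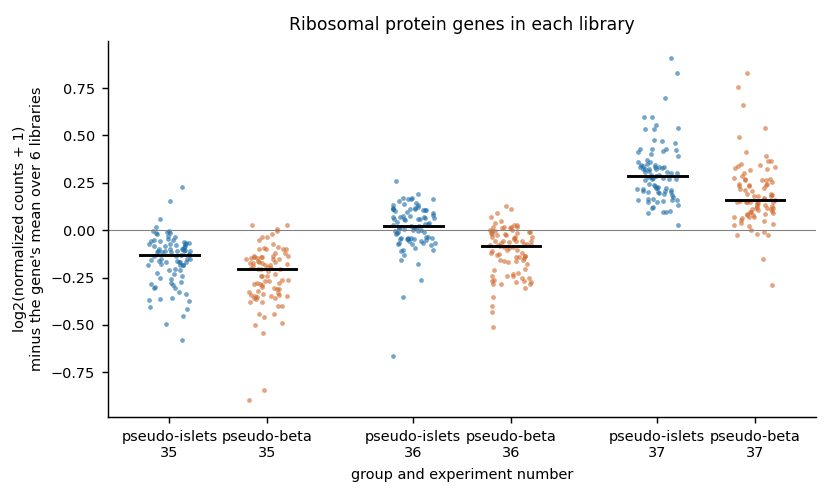
Deviation of each of the 87 genes from its own mean over the 6 libraries, in log2(normalized counts + 1), by group and experiment, with the median of each library as a bar. The medians for experiments 35, 36 and 37 are -0.13, 0.02 and 0.29 (pseudo-islets) and -0.20, -0.09 and 0.16 (pseudo-beta), so in both groups experiment 37 lies highest and experiment 35 lowest, and pseudo-islets lie above pseudo-beta in each experiment.

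For each member, the SD over the 3 experiments of the experiment mean was set against the mean paired difference. The SD had a median of 0.21 on the log2 scale and the absolute difference a median of 0.12, and the SD was the larger in 75 of the 87 genes (86.2%, against 58.6% of all genes). It was the larger in 43 when experiment 37 was left out, in 57 without experiment 35 and in 80 without experiment 36. The 3 paired differences of a gene lay close together, with a median SD of 0.10. The mean difference exceeded that SD in 45 members (51.7%), against 30.4% of all genes. It did so in 37.0% of the other genes that averaged 500 or more and in 40% of the mitochondrial ribosomal protein genes. Of a member's sum of squares over the 6 libraries, a median of 82.5% lay between experiments, 9.40% between the groups and 4.02% in neither. The medians over all genes were 52.1%, 11.8% and 22.3%, and over the other genes that averaged 500 or more 61.1%, 11.4% and 15.2%. With 3 experiments, the experiment part has more degrees of freedom than the group part, so these parts are not directly comparable with each other.

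**Figure D3:**
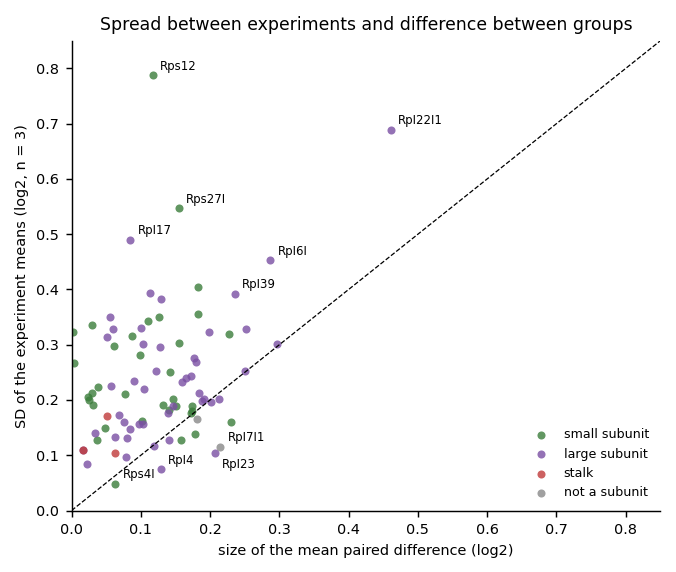
SD of the 3 experiment means against the absolute mean paired difference for the 87 genes, both in log2(normalized counts + 1), with a dashed line where they are equal. 75 genes lie above the line, with *Rps12*, *Rpl22l1* and *Rps27l* highest.

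Other measures of the libraries differed too. Transcripts of the mitochondrial genome made up 1.3% and 1.5% of the normalized counts in the libraries of experiment 37 and 0.726% to 0.864% in the other 4. *Malat1*, a long nuclear RNA, was lower in pseudo-islets in each experiment, at 0.265%, 0.270% and 0.229% against 0.294%, 0.298% and 0.637% in pseudo-beta. Its difference was largest in experiment 37, where the pseudo-beta library stood apart. The 4 long nuclear RNAs examined (of 5 listed) summed to 56871 to 64822 normalized counts in pseudo-islets against 67020.0 to 140532 in pseudo-beta, with a median log2 fold change of -0.55. None was called by limma with or without the block, and *Malat1*, *Meg3* and *Kcnq1ot1* had an unadjusted p under 0.05 with it, all lower in pseudo-islets on average. In experiment 35 *Meg3* and *Kcnq1ot1* were higher in pseudo-islets. *Neat1* had a log2 fold change of 0.007 and was highest in experiment 37 in both groups. The part of these measures in the ribosomal protein values was not tested. Members have short transcripts, with a median of 871 bases against 2799.5 for all genes. After each library was corrected for transcript length and GC content, the median of experiment 37 minus experiment 35 was 0.29, with 83 of the 87 higher in experiment 37, and the SD between experiments was the larger in 68.

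Levels between genes were compared per kilobase of transcript. The median member had 2094 normalized counts per kb, and the 5 highest were *Rps27* (10557), *Rpl4* (9536), *Rpl10* (8045), *Rps6* (7768) and *Rps14* (7375). The 5 lowest were *Rps3a2* (192), *Rpl37rt* (177), *Rpl22* (144), *Rps15a* (112) and *Rpl6l* (66.6). Between these ends the order is dense. The ranges of the 6 libraries overlap for most neighbours, and a level per kb also depends on the gene model, since *Rps15a* was given 5179 bases and *Rps27* 345. Expression that RSEM assigns to a member can come from its pseudogenes and the reverse. Among the members, 34 have pseudogene rows in the deposited data, 45 in all. The pseudogene rows of *Rps6* hold 9.42% as much as *Rps6* itself. Whether reads were counted by strand is not given in the sources used here, and 25 members overlap a gene on the opposite strand, among them *Rpl22l1*, *Rpl30* and *Rpl7l1*.

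**Figure D4:**
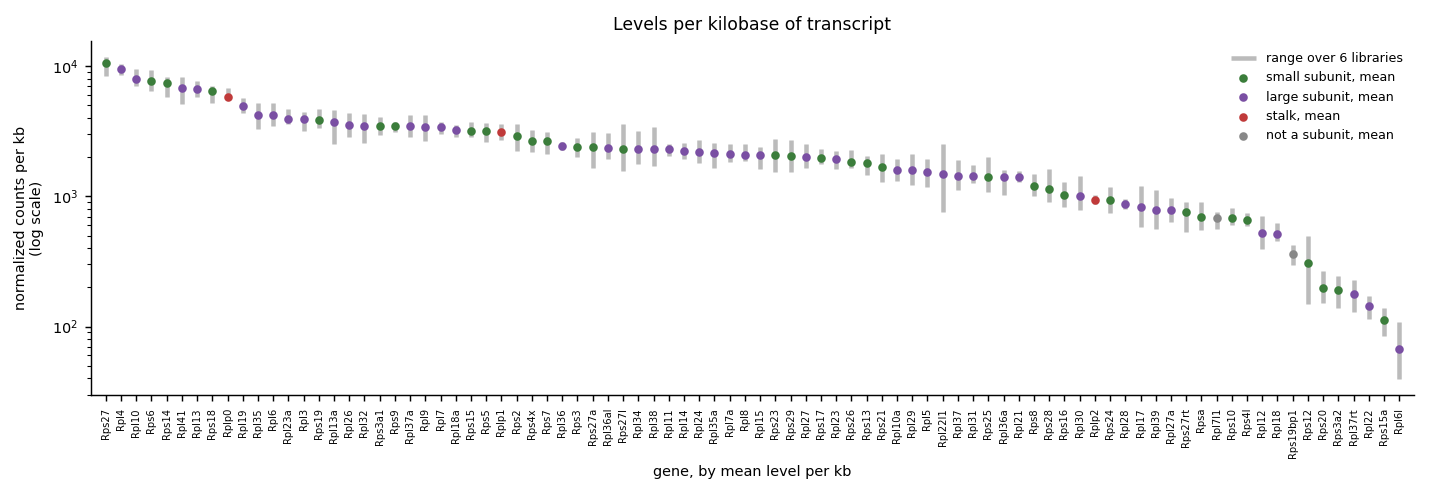
Mean normalized counts per kilobase of transcript on a log scale for 86 of the 87 genes, by subunit, with the range over the 6 libraries. The means run from 10557 (*Rps27*) to 66.6 (*Rpl6l*), and the ranges of neighbours overlap along most of the axis.

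Small-subunit genes had a median log2 fold change of 0.12, and 33 of the 35 were positive. *Rps6* encodes the protein whose phosphorylation by S6 kinase the study used as a sign of glucose sensing. Its normalized counts were 6174, 7322 and 8218 in pseudo-islets against 5649, 6378 and 7181 in pseudo-beta. These and all values given as triplets follow the order of experiments 35, 36 and 37. It was higher in pseudo-islets in each experiment, but the groups overlapped. The log2 fold change was 0.17 ± 0.14 (SE), with an adjusted p of 0.992 by limma, and 0.369 with the block.

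*Rps14*, a protein of the platform of the small subunit, had 5522, 6399 and 6440.5 normalized counts in pseudo-islets against 4522, 5817 and 6037 in pseudo-beta. It was higher in pseudo-islets in each experiment, with overlapping groups and an adjusted p of 0.410 (limma with the block).

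*Rps12* had the largest spread between experiments of all 87 genes. Pseudo-islets had 108, 154 and 289 normalized counts against 86.6, 151 and 289 in pseudo-beta. In experiments 36 and 37 the groups were close, while experiment 37 stood 2.96-fold above experiment 35 over both groups (adjusted p between experiments 0.0175, limma). Its level was low, 307 per kb.

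*Rpsa*, which is also known as the laminin receptor precursor, had 1159, 1249 and 1759 against 1068, 1121 and 1692. *Rps27a*, a ribosomal protein made as a fusion with ubiquitin, had 1592, 1938 and 2453 against 1303, 1751 and 2269. Both were higher in pseudo-islets in every experiment and differed between experiments (adjusted p 0.0238 and 0.0153, limma), and neither group difference was called. *Rps19*, which is mutated in Diamond-Blackfan anaemia, had 2611, 2862 and 3604 against 2597, 2899 and 3365. Its log2 fold change of 0.03 was -0.03 with rescaling, by the shift that all genes shared, and -0.05 after quantile normalization. The lowest small-subunit gene per kb with a protein-coding model was *Rps15a*, with 541, 538 and 719 against 559, 435 and 701 and a log2 fold change of 0.10.

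*Rps27* and *Rps27l* encode alternative forms of one small-subunit protein, and *Rps27l* is also known as a p53 target. *Rps27* had 2922, 4067 and 4076 normalized counts in pseudo-islets against 3274, 3511 and 4003 in pseudo-beta. *Rps27l* had 875, 1011 and 1793 against 785, 909 and 1608. For *Rps27* the sign differed between experiments, and its log2 fold change of 0.02 was -0.03 with rescaling, -0.06 after quantile normalization and -0.05 after the length and GC correction. For *Rps27l* the paired differences were 0.16, 0.15 and 0.16, and experiment 37 was 2.05-fold above experiment 35 (adjusted p between experiments 0.00352, limma). *Rps4x* had 2452, 2618 and 3175 against 2421, 2149 and 2866, and its processed copy *Rps4l* 595, 624 and 699 against 609, 665 and 561. *Rps4l* had the smallest spread between experiments of the 87 genes, with an SD of 0.05. The pseudogene *Rps3a2* had 109, 158 and 194 against 144, 136 and 171, and its log2 fold change of -0.0033 was 0.05 after quantile normalization.

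Large-subunit genes also had a median log2 fold change of 0.12, and 44 of the 47 were positive. *Rpl22l1*, a paralogue of *Rpl22* that can replace its product on the ribosome, had the largest difference of all members. Its normalized counts were 661, 729.7 and 1407 in pseudo-islets against 417, 526 and 1183 in pseudo-beta. It was higher in pseudo-islets in each experiment, by 0.66, 0.47 and 0.25 on the log2 scale, yet the groups overlapped because experiment 37 lay 2.45-fold above experiment 35. The fold was 1.38, with a 95% interval of 1.13 to 1.68 and an adjusted p of 0.200 with the block, and 0.992 without it (limma). *Rpl22* had 342, 272 and 327 against 236, 247 and 352. It was higher in pseudo-islets in experiments 35 and 36 and lower in experiment 37, and its level per kb was under that of *Rpl22l1* in every library.

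**Figure D5:**
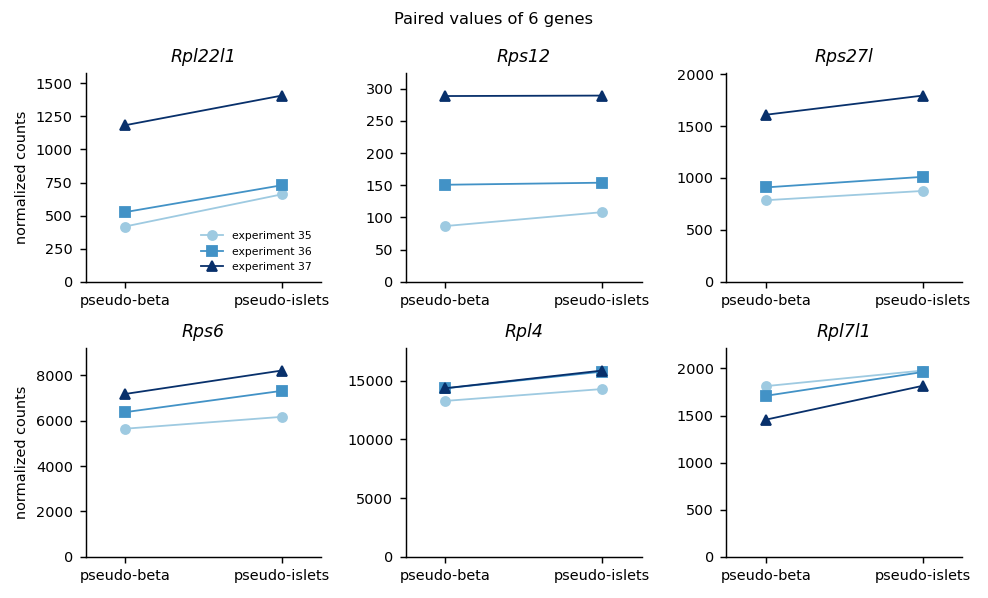
Normalized counts of 6 genes in pseudo-beta and pseudo-islets, with a line for each experiment. *Rpl22l1*, *Rps12* and *Rps27l* are separated by experiment 37, *Rpl4* shifts least by experiment, and *Rpl7l1* is lowest in experiment 37 in both groups.

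*Rpl30*, a large-subunit surface protein, had 797, 902 and 1264 normalized counts in pseudo-islets against 696, 724 and 971 in pseudo-beta. *Rpl29* had 1156, 1119.7 and 1557 against 902, 1033 and 1285. *Rpl39*, a small protein of the exit tunnel, had 384, 493 and 687 against 388, 346 and 593. The fold changes of the first pair were 1.23 and 1.19, each higher in pseudo-islets in all 3 experiments with overlapping groups (adjusted p 0.354 and 0.406, limma with the block). That of *Rpl39* was 1.18, and its paired difference in experiment 35 was -0.01.

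*Rpl4*, which lines the exit tunnel and hosts 5 small nucleolar RNAs in its introns, had the highest level of all members before division by length. There were 14304, 15789 and 15882 normalized counts in pseudo-islets against 13290.2, 14363 and 14371 in pseudo-beta. The paired differences were 0.11, 0.14 and 0.14, with an SD of 0.02, and they exceeded the spread between experiments (SD 0.07), which only *Rps4l* undercut. Its 95% interval was -0.01 to 0.27 (limma with the block, adjusted p 0.452). *Rpl10*, needed for the last steps of subunit maturation, had 6776, 6639 and 8207 against 6052, 6041 and 7555, a log2 fold change of 0.14. It was higher in pseudo-islets in each experiment.

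*Rpl5* and *Rpl11* form a complex with 5S ribosomal RNA that can bind MDM2 and so stabilise p53. *Rpl5* had 2679.7, 3351 and 3938 normalized counts in pseudo-islets against 2405, 2905 and 3509 in pseudo-beta. *Rpl11* had 1808, 2072 and 2122 against 1705, 1814 and 2005. Both were higher in pseudo-islets in each experiment, and *Rpl5* alone of the pair was called between experiments (adjusted p 0.0236 and 0.402, limma). *Rpl23*, which also binds MDM2, had 2041, 2235 and 2363 against 1923, 1728 and 2111, and a small spread between experiments (SD 0.10).

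*Rpl17* had 822, 979 and 1596 normalized counts in pseudo-islets against 769, 944 and 1482 in pseudo-beta. Experiment 37 was 1.93-fold above experiment 35 (adjusted p between experiments 0.00627, limma), with a log2 fold change between the groups of 0.08. *Rpl28* had 1015, 947 and 1041 against 886, 905 and 1058, and *Rpl36* 876, 963 and 1001 against 878, 983 and 933. Both had among the smallest spreads between experiments (SD 0.10 and 0.08), and the log2 fold change of *Rpl36*, 0.02, was -0.04 with rescaling and -0.01 after quantile normalization. *Rpl36a* had 675, 727 and 768 against 497, 675 and 755, and its paralogue *Rpl36al* 2904, 2631 and 3937 against 2624, 2459.6 and 3575. Both were higher in pseudo-islets in each experiment, and *Rpl36al* had the higher level per kb.

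The members with negative fold changes were few and mostly low. *Rpl21* had 2390.2, 2468 and 2886 normalized counts in pseudo-islets against 2595, 2461 and 2760.1 in pseudo-beta, with a log2 fold change of -0.02. The pseudogene *Rpl37rt* had 88.2, 92.6 and 155 against 118, 119.7 and 153, and the pseudogene *Rpl6l* 53.0, 34.3 and 67.3 against 40.2, 59.6 and 93.6. For *Rpl6l* the sign differed between experiments, and its 95% interval ran from -1.10 to 0.53 (limma with the block).

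The stalk proteins, which recruit and activate the elongation factors, had small differences of mixed sign. *Rplp0*, the base of the stalk and a common reference gene, had 7649.9, 7570.0 and 9172 normalized counts in pseudo-islets against 7462, 7721 and 8080.5 in pseudo-beta. *Rplp1* had 1442, 1498 and 1803 against 1344, 1519 and 1717, and *Rplp2* 845, 905 and 969 against 836, 928 and 988. All 3 were lower in pseudo-islets in experiment 36 and higher in experiment 35. The log2 fold changes were 0.06, 0.05 and -0.02. That of *Rplp0* was -0.02 after quantile normalization, and that of *Rplp1* was -0.01 with rescaling and -0.02 after quantile normalization. The 95% intervals with the block ran from -0.27 to 0.27 over the 3 genes (limma).

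The 2 genes that are not subunits each departed from most members, in different respects. *Rpl7l1*, a relative of *Rpl7* that acts in large-subunit assembly, had 1978, 1962 and 1816 normalized counts in pseudo-islets against 1812, 1709 and 1456 in pseudo-beta. The lowest pseudo-islets library lay just above the highest pseudo-beta library. The log2 fold change was 0.21 (adjusted p 0.978, and 0.418 with the block, limma). Its level in experiment 37 was 0.859 times that in experiment 35, opposite to most members. *Rpl7* itself had 3666, 4109 and 4359 against 3658, 3493 and 4347, and its log2 fold change of 0.08 was -0.01 after quantile normalization. *Rps19bp1*, whose product binds RPS19 and the deacetylase SIRT1, had 271, 248 and 327 against 304, 299 and 354. It was lower in pseudo-islets in each experiment, with overlapping groups and a log2 fold change of -0.18 (adjusted p 0.998, and 0.737 with the block, limma).

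Other genes of the pathway were followed as lists, and none of their genes was called in either direction by limma, with or without the block. Of the ribosomal proteins with other symbols, *Fau* had a log2 fold change of 0.11 and *Rack1* of -0.05. The medians were 0.10 for 11 elongation and termination factors, 0.09 for 36 initiation factors, 0.06 for 7 other TOP mRNAs, 0.05 for 79 ribosome biogenesis genes, 0.04 for 39 genes of mTORC1 and its effectors, 0.01 for 19 ribosome surveillance genes and -0.09 for 12 host genes of small nucleolar RNAs. *Mtor* had a log2 fold change of -0.07 and *Larp1* of 0.08. Among the initiation factors, 9 had an unadjusted p under 0.05 with the block, 6 higher and 3 lower in pseudo-islets, from *Eif3e* (0.31) to *Eif4g3* (-0.41). This number was 7 of 79 for ribosome biogenesis (5 higher, 2 lower), 3 of 39 for mTORC1, 3 of 19 for ribosome surveillance, 1 of 12 for the small nucleolar RNA hosts and 0 for the other lists, where it was 1611 of 13535 over all genes.

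These lists did not all share the step between experiments. Experiment 37 minus experiment 35 had a median of 0.01 for the elongation factors, -0.14 for the initiation factors, -0.27 for ribosome biogenesis and -0.04 for the other TOP mRNAs, against 0.39 for the members. It was 0.56 for the small nucleolar RNA hosts and 0.12 for the mitochondrial ribosomal protein genes, of which 48 of 80 were higher in experiment 37 than in experiment 35.

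Markers of other islet cells moved with the groups. The table holds 10 of 10 beta-cell markers, none of them called. Of the alpha-cell markers 9 of 12 are in it, with *Gcg* called higher in pseudo-islets (941 to 2094 normalized counts against 0 to 36.1), and of the delta-cell markers 3 of 8, with *Sst* called higher (146 to 210.2 against 0 to 4.74), both by limma. *Ttr*, on the alpha-cell list, was called higher with the block. *Gcg* was at 0 in pseudo-beta 37 and *Sst* in pseudo-beta 35 and 36. The alpha-cell markers summed to 27782 to 32151 in pseudo-islets against 25799 to 31930.4 in pseudo-beta, and the delta-cell markers to 399 to 544 and 254 to 310.5. PP-cell markers (4 of 4) summed to 1549.7 to 6191 and 841 to 2955, with 3 called higher by limma with the block. Immune markers (2 of 10) summed to 1656 to 2675 and 988 to 1416, with *C1qa* called higher with the block, and the endothelial marker *Esam* (1 of 8) to 41.4 to 74.4 and 56.5 to 89.5. None of the 12 acinar, 8 stromal and 5 red blood cell markers is in the table, so they were not analysed here. The part of other cells in the small difference between the groups was not tested.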

How the data were processed

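RNA-seq libraries of 6 samples were analysed. The authors aligned reads with STAR 2.7.6a to GRCm38, quantified genes with RSEM 1.3.1 and normalized with DESeq2 1.26.0, which gave the deposited signal, normalized counts per gene and library. Read numbers are unknown. Totals were 17994300 to 19635300 normalized counts per library. The deposited table also holds the authors' own comparison (mean signal, log2 fold change, score, p-value), which was not used. Values were not whole reads, so limma 3.58.1 (R 4.3.3, trended prior variance, no block) was run on log2(value + 1) over all 13535 genes, with Benjamini-Hochberg adjustment and a threshold of 0.05. It was tested on simulated data. Experiment numbers pair the samples: deviations from group means correlated at 0.119, 0.121 and 0.325 within experiments and at -0.203 to 0.0922 across them, with a minimum of 0.1 required. The study describes 3 independent experiments, with n as independent biological samples, but does not state which mice each used. Without the block, the p-values set a difference against the spread between these samples within a group. With the block, and in the F-test between experiments, they use the spread left after group and experiment. Gene models came from GENCODE M21, start sequences from RefSeq. Named genes were those extreme in fold change, level per kb or spread between experiments (5 at each end), those whose groups did not overlap, paralogues with their parents, and members of known special roles. Listed genes were named when called or extreme in their list. *Rpl3l*, *Rpl10l*, *Rpl26l1* and *Rpl39l* were not analysed here. The separate values of 2 genes are not reported here, and the plots by gene leave out 1 of them. Members and lists were chosen with earlier results of these data known. Alternatives changed block, prior, pseudocount, low-value filter, scaling, length and GC correction, pseudogene rows and libraries.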

Additional observations from a re-analysis of the deposited data

How the results depend on the processing

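No member was called under any of the 25 alternatives, and the lowest adjusted p of a member was 0.200 (limma, replicate block). The replicate block changed no call among the members. The median log2 fold change of the members was 0.056 after scaling without the 10 most abundant genes (with and without the replicate block), 0.057 after scaling also without the members, 0.054 after quantile normalization and 0.087 after the length and GC correction (with and without the block). The first of these moved the median of all genes from 0.01 to -0.05. Leaving out single libraries gave medians of -0.012 to 0.23. The count of members whose spread between experiments exceeded the paired difference was 43 to 80 over the left-out experiments. Of the 37 named genes, 19 kept their sign throughout and 11 changed it only when libraries were left out. Scaling without the 10 most abundant genes, with or without the block, gave -0.036 for *Rpl36*, -0.0079 for *Rplp1*, -0.029 for *Rps19* and -0.034 for *Rps27*, and leaving out the members as well gave -0.035, -0.0068, -0.028 and -0.033. Quantile normalization gave -0.014, -0.022, -0.048 and -0.056 for these, -0.0058 for *Rpl7*, -0.020 for *Rplp0* and 0.051 for *Rps3a2*. The length and GC correction, with or without the block, gave -0.047 for *Rps27*. Leaving out single libraries gave -0.10 to 0.036 for *Rpl21*, -0.082 to 0.038 for *Rplp2*, -0.19 to 0.22 for *Rps3a2*, -0.056 to 0.18 for *Rps27*, -0.19 to 0.35 for *Rpl17*, -0.019 to 0.077 for *Rpl36*, -0.042 to 0.29 for *Rpl36al*, -0.026 to 0.11 for *Rplp0* and -0.048 to 0.14 for *Rplp1*. It gave -0.30 to 0.56 for *Rps12*, -0.076 to 0.27 for *Rps15a*, -0.10 to 0.13 for *Rps19*, -0.16 to 0.46 for *Rps27l*, -0.0023 to 0.12 for *Rps4l*, -0.073 to 0.32 for *Rpsa*, -0.022 to 0.38 for *Rps27a* and -0.58 to 0.020 for *Rpl6l*. With the block, leaving out experiment 35 gave 0.034 for *Rpl21* and 0.20 for *Rps3a2*, leaving out experiment 36 gave -0.0054 for *Rps15a* and -0.069 for *Rps27*, and leaving out experiment 37 gave -0.017 for *Rpl36*, -0.0052 for *Rps19* and -0.063 for *Rps4l*. The cause was not tested. Alternatives that joined the block with scaling, pseudogene rows or an untrended prior, and the correction applied to the spread, were chosen after the data had been seen. The number of reads is unknown, so counting error could not be separated from the spread between libraries.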
